A study of Mus musculus with 24 samples.

Results

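Neurotransmitter receptor genes were taken as every gene of the deposited table whose symbol begins with the stem of an AMPA, kainate, NMDA or metabotropic glutamate receptor, a GABA-A or GABA-B receptor, a nicotinic or muscarinic acetylcholine receptor, a serotonin receptor, an alpha adrenoceptor or an opioid receptor. This name pattern matched 63 of 14066 gene symbols, in 75 of 19571 transcript rows. Each symbol is represented by its most abundant transcript by mean raw count; 56 symbols had a single row and 7 had several. Not every counted transcript is annotated as coding: that of Gabra2 is a target of nonsense-mediated decay, those of Grin1, Grin3a and Grm8 are processed transcripts, and that of Gria3 retains an intron. For these genes the values are those of the transcript counted and not of the receptor's coding RNA. Coordinates given beside gene names are those of the counted transcript on GRCm38. The rule itself uses names and abundance and no comparison, though it was set with earlier results of these data known. One matched gene, Grin1os, is an antisense RNA that overlaps Grin1 and makes no receptor. It is not known whether the counting took strand into account. As genes, Grin1 and Grin1os overlap on opposite strands, and so do Gabra4 and Gabrb1, but the transcripts counted for them do not overlap. That of Grin1 lies at 25310801-25319126 and that of Grin1os at 25291220-25298925. That of Gabra4 ends at 71658308 and that of Gabrb1 starts at 71699932. Reads from other transcripts of Grin1 could still have been counted for Grin1os, and reads from other transcripts of Gabrb1 for Gabra4.

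Total RNA was extracted from whole ganglia, per the labels; the protocol also speaks of IP or FT RNA as the input to cDNA, without saying what these are or tying them to a library, so which RNA the levels describe is not settled by the labels. The libraries came from dorsal root ganglia, where the cell bodies of sensory neurons sit among satellite glia, of wild-type mice aged 12 weeks (strain given as C57B/L6). Every mouse had its sciatic nerve crushed, and there was no uninjured group. Camptothecin, an inhibitor of DNA topoisomerase I, was injected into the peritoneum at 2 mg/kg 30 minutes after the crush, and the other mice received vehicle. Camptothecin ganglia gave 3, 4 and 3 libraries at 18, 24 and 36 h after injury, and vehicle ganglia gave 3 at each time. The labels list 24 samples, of which 5 were not analysed here. Whether each replicate was its own animal, or pooled ganglia, is not stated, and a p-value here reflects variation among samples that could be partly technical.

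All 63 genes passed the filter on low counts; the deposited table holds no transcript with a total under 75 counts over the libraries, so receptor genes below that are not analysed here. Library totals were between 6637121 and 15041262 counts with camptothecin and between 3617718 and 8317072 counts with vehicle, and at each time every camptothecin library was deeper than every vehicle library. Across all transcripts, the rank correlation of a library's deviation in level with transcript GC content ran from -0.078 to 0.325 in camptothecin libraries and from -0.316 to 0.060 in vehicle libraries. Treatment, depth and this GC trend moved together and cannot be told apart by the design. Values with a GC correction stand beside the averaged results of the named receptor genes and partners that were called. Values with libraries thinned to equal depth are added where that ended such a call. Most values at single times, the overlap counts, the comparisons between times and the cell type markers are given without the GC correction. All 19 sensory neuron markers were measured. Of 10 spinal cord markers, Gad1, Slc32a1, Olig1, Olig2, Mog and Chat had no row.

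A sensory neuron carries receptors for transmitters on its cell body and on its terminals in skin and spinal cord. Ionotropic receptors are ion channels opened by the transmitter: AMPA, kainate and NMDA receptors for glutamate, GABA-A receptors for GABA, nicotinic receptors for acetylcholine and the serotonin channel built from Htr3a and Htr3b. Metabotropic receptors act through G proteins; those coupled to inhibitory G proteins, such as GABA-B, muscarinic M2, opioid and several serotonin receptors, dampen transmitter release from sensory terminals. GABA-A receptors on these neurons take part in presynaptic inhibition, in which GABA released in the spinal cord depolarises the afferent terminal. Topoisomerase I, the target of camptothecin, relieves the twisting of DNA that builds up as genes are transcribed.

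Promoter sequence is shown for 4 of the genes with the smallest p in the comparison of camptothecin with vehicle averaged over the 3 times, so that the base composition around their starts can be seen beside the results. Each line gives the 250 bases upstream of the RefSeq gene start, 5′ to 3′ on the gene's strand, from RefSeq on GRCm38.p6; the RefSeq start of Grm7 lies 16 bases inside the counted transcript, and those of the other 3 coincide with it. Capitals mark a GC box (GGGCGG, or CCGCCC where it lies on the other strand), the binding motif of Sp1-type factors.
Gabrg1, chr5:70842618-70842867, minus strand: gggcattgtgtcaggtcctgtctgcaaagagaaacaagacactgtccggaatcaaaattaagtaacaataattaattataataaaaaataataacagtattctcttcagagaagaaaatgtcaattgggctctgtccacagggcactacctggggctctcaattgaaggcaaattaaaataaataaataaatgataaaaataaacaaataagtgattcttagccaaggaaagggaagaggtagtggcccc
Grm7, chr6:110645348-110645597, plus strand: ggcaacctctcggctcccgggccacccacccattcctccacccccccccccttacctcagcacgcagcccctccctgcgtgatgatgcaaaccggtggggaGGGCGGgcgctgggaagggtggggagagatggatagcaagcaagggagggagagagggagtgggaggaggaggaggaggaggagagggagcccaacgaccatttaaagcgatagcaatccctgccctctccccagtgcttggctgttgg
Gria4, chr9:4796235-4796484, minus strand: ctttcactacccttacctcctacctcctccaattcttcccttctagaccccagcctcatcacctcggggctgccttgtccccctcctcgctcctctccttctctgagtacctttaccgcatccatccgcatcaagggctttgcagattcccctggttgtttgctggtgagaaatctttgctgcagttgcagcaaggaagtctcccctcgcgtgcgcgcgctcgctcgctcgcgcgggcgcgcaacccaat
Chrm2, chr6:36387834-36388083, plus strand: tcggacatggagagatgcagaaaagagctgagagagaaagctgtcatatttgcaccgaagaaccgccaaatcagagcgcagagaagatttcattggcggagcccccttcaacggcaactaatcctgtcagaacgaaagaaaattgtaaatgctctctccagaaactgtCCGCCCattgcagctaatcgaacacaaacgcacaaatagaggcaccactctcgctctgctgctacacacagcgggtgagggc
The Gabrg1 window had a GC content of 35.6% and 1 CpG dinucleotide. The Gria4 window had 58.8% and 16 CpGs, and the Grm7 window 65.2% and 9. The Chrm2 window had 12 CpGs. A GC box lay in the windows of Grm7 and Chrm2. The window of Htr1f, also among the genes with the smallest p, is not shown. It had a GC content of 49.2%, 7 CpGs and no GC box. Over the 45 receptor genes with a RefSeq window, 23 (51.1%) held a GC box on either strand, against 32.7% of 32851 windows of the same length over all genes. An AP-1 site (TGANTCA) was found in 4 of the 45 (8.89%), against 6.75% of all windows, and a cAMP response element (TGACGTCA) in 0 of 45, against 1.55%. The 45 windows are 1 per gene, the nearest to the counted transcript. The 32851 are all distinct RefSeq windows, can hold several for a gene and include genes not counted here. The shares are therefore not of like sets. These are matches of letters and not measured binding.

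Levels per length differed widely within each receptor family. On the scale of CPM, counts scaled to a common library total, per kb of transcript, averaged over the 19 libraries, Gabbr2, the GABA-B subunit that couples to the G protein, was highest at 50.9 ± 4.79 CPM per kb (SD, n = 19). Htr3a, the subunit that serotonin channels need, followed at 46.4 ± 7.33 CPM per kb. The GABA-A subunits Gabra2 and Gabrg1 had 27.3 ± 7.35 and 25.1 ± 9.92 CPM per kb, and their library ranges overlapped. Among nicotinic subunits Chrna7, which forms channels of a single subunit type, was highest at 17.4 ± 3.66 CPM per kb, and Chrnb2 followed at 12.8 ± 1.55 CPM per kb.

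Of the G protein coupled receptors for serotonin, Htr1f had the highest level at 15.8 ± 6.13 CPM per kb. Chrm2, the M2 receptor, had 5.99 ± 2.06 CPM per kb, Oprm1, the mu opioid receptor, 5.63 ± 1.1 CPM per kb, and Grm7 4.99 ± 2.15 CPM per kb. Grik5 had the highest mean of the ionotropic glutamate receptor genes, 6.12 ± 1.35 CPM per kb. Grik3 followed at 5.58 ± 0.792 CPM per kb, and their library ranges overlapped. Gria4 was the highest AMPA subunit at 2.62 ± 1.29 CPM per kb, and Grin2d the highest NMDA subunit at 1.08 ± 0.33 CPM per kb. Among the alpha adrenoceptors Adra2c had the highest mean, 1.61 ± 0.582 CPM per kb, and Adra2a had 1.34 ± 0.393 CPM per kb, with overlapping library ranges. The lowest member was Grin2b at 0.0678 ± 0.0667 CPM per kb, with 0 counts in at least 1 library. The transcript counted for Grik2 has no length in the annotation used, so that gene has no level per kb.

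**Figure D1:**
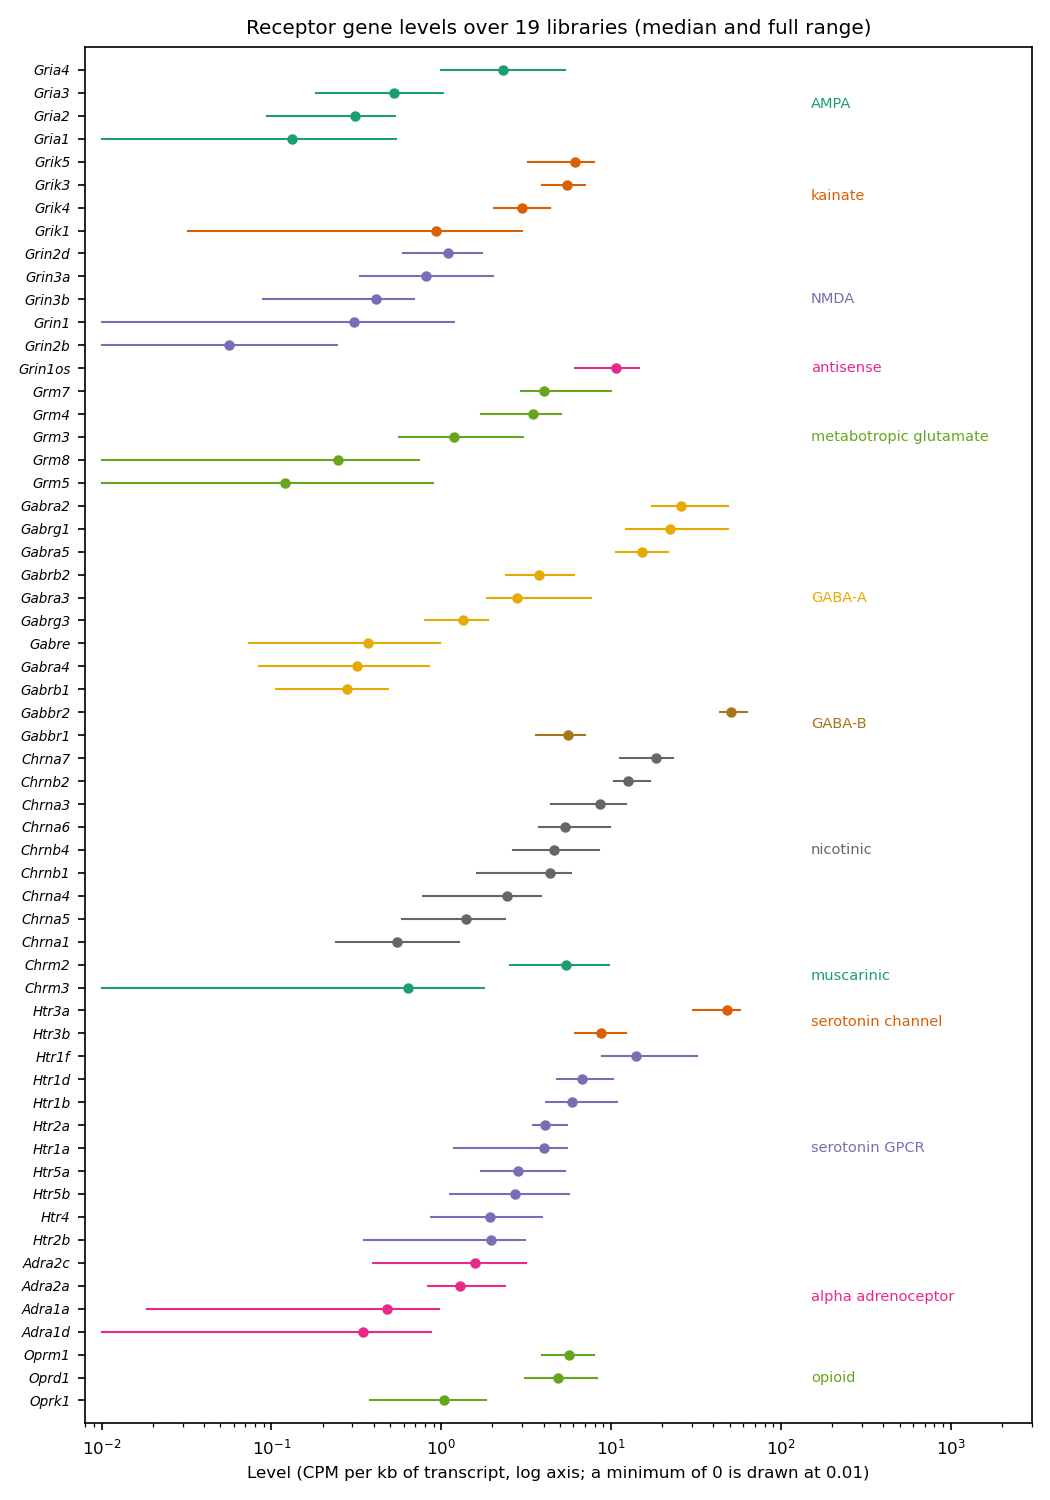
Level of 59 receptor genes in CPM per kb of transcript on a log axis, with the median over 19 libraries as a point and the full range as a line, grouped by receptor family. Gabbr2 (mean 50.9) and Htr3a (mean 46.4) stand at the high end and Grin2b (mean 0.0678) at the low end.

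The design asks how camptothecin alters ganglion RNA after nerve injury. Averaged over the 3 times, 12 of the 63 receptor genes were lower in camptothecin than in vehicle ganglia at an adjusted p under 0.05 and 1 was higher. That is 19.05% lower and 1.587% higher, against 7.69% lower and 2.59% higher (10.3% in either direction) among all 18606 transcripts tested. Without the GC correction the lower share was above the background. With 1 gene, the higher share was not read as different from its background. The lower genes were 4 GABA-A subunits (Gabra2, Gabra3 and Gabrg1 among them), 3 serotonin receptors (Htr1b, Htr1f, Htr4), 3 ionotropic glutamate receptor subunits (Gria4, Grik1, Grin3a), Grm7 and Chrm2. The higher gene was Grik5. The median log2 fold change of the 63 was -0.05, against 0.01 over all transcripts, and 35 of the 63 were below 0.

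With each library corrected for its GC trend, 3 of the 63 receptor genes were lower (Grm7, Grik1 and Gria4) and none was higher. The background was 3.12% lower and 1.37% higher (4.49% in either direction). So few genes were not read as above or below it. The corrected median of the 63 was -0.03. In bulk ganglia, fewer cells of a type and less RNA per cell cannot be told apart.

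**Figure D2:**
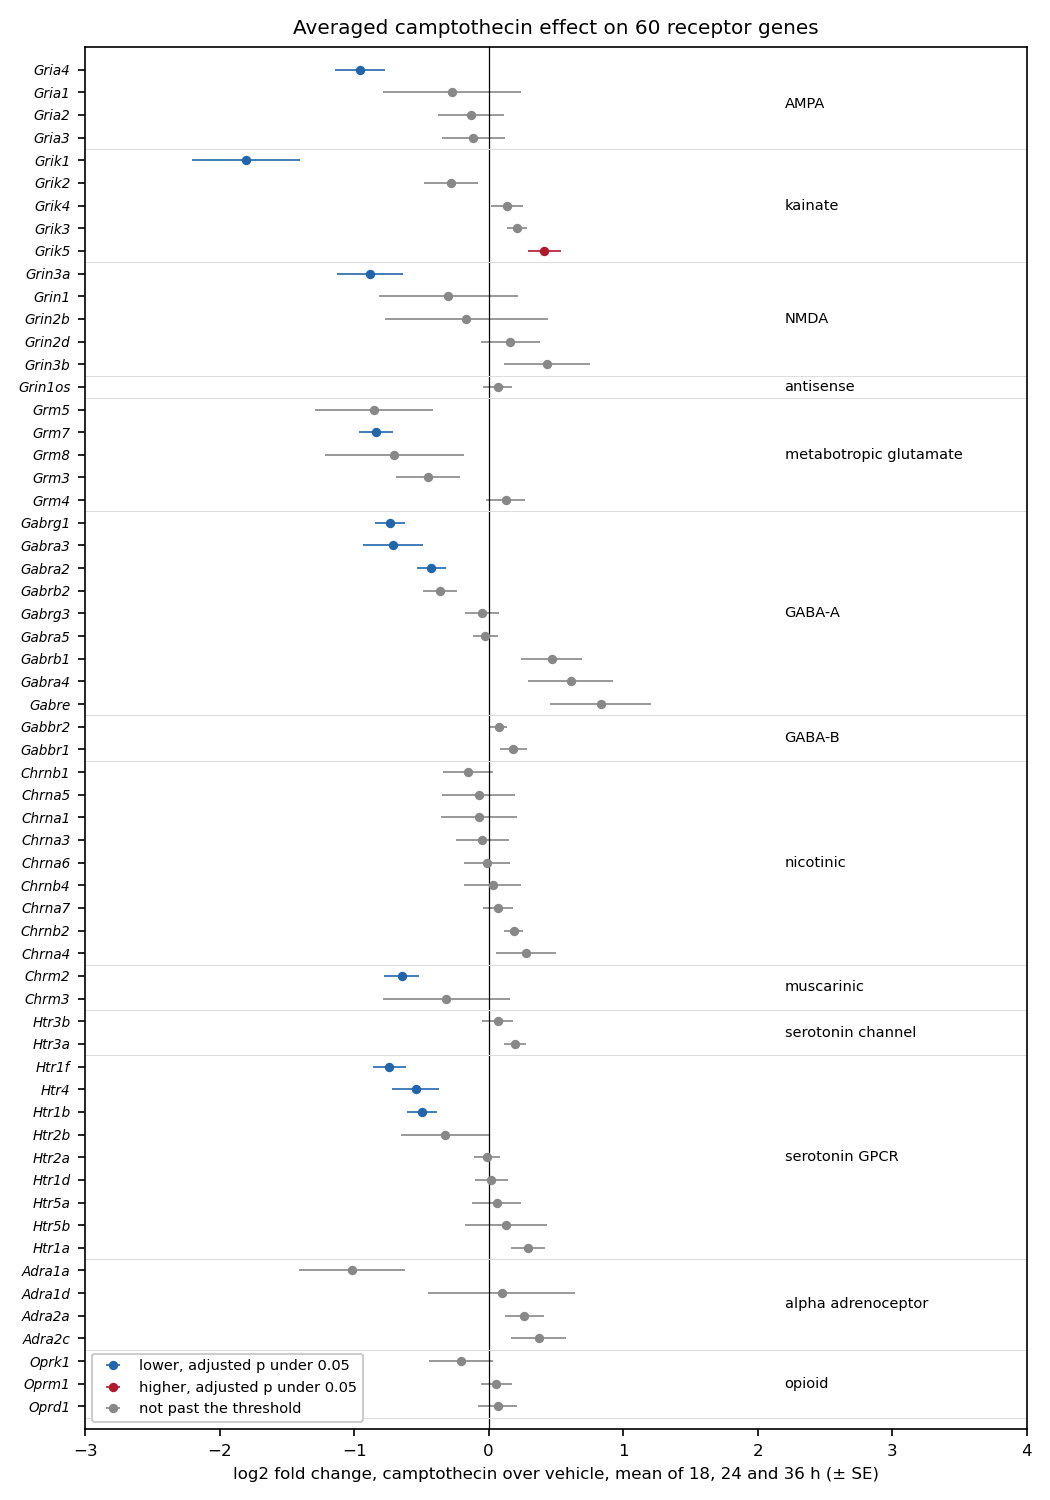
Log2 fold change of camptothecin over vehicle averaged over 18, 24 and 36 h for 60 of the 63 receptor genes by family, with SE bars. Blue points are 11 of the 12 genes lower at an edgeR adjusted p under 0.05, red is Grik5, and grey points did not pass; the nicotinic, GABA-B, opioid, alpha adrenoceptor and serotonin channel families hold grey points alone.

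GABA-A receptors are pentameric chloride channels, and their alpha subunits set kinetics and drug sensitivity. Of 12 GABA-A subunits, 4 fell and none rose in the averaged comparison, against 7.69% lower and 2.59% higher among all transcripts. With the GC correction none of the 12 was called, against 3.12% lower and 1.37% higher. Gabrg1 encodes the gamma-1 subunit (chr5:70751047-70842617, minus strand, GRCm38). At 18 h it had 91.3, 91.5 and 101 CPM in camptothecin ganglia against 134, 157 and 126 CPM in vehicle ganglia. At 24 h it had 111, 58.7, 81 and 82.7 CPM in camptothecin ganglia against 146, 106 and 94.6 CPM in vehicle ganglia, and at 36 h 79.1, 89 and 106 CPM in camptothecin ganglia against 231, 227 and 161 CPM in vehicle ganglia. The groups did not overlap at 18 and 36 h and overlapped at 24 h. Averaged over the times, the log2 fold change of Gabrg1 was -0.73 ± 0.11 (SE; edgeR adjusted p = 0.000145). With the GC correction it was -0.14 ± 0.12 (adjusted p = 0.59), and the Gabrg1 transcript has a GC content of 35.3%.

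Gabra2, the alpha-2 subunit gene beside Gabrg1 on chromosome 5 (chr5:70961061-71094640, minus strand), was counted by its nonsense-mediated decay transcript and had 41.7, 60.6 and 47.5 CPM in camptothecin ganglia against 83.4, 109 and 73.3 CPM in vehicle ganglia at 36 h. At 18 h it had 56.9, 58 and 53 CPM in camptothecin ganglia and 75, 60.1 and 52.4 CPM in vehicle ganglia, and at 24 h 47.6, 61.6, 38.9 and 56.1 CPM in camptothecin ganglia and 75.7, 61.6 and 51.7 CPM in vehicle ganglia. The groups were separate at 36 h and overlapped at both earlier times. Its averaged log2 fold change was -0.43 ± 0.11 (edgeR adjusted p = 0.013), and -0.10 ± 0.11 with the GC correction (adjusted p = 0.704). Gabra3, the X-linked alpha-3 gene (chrX:72432681-72656186, minus strand), had 10.3, 8.51 and 8.77 CPM in camptothecin ganglia and 24.8, 27.8 and 7.69 CPM in vehicle ganglia at 18 h. It had 9.92, 7.58, 11.3 and 7.26 CPM in camptothecin ganglia and 13.8, 6.82 and 15 CPM in vehicle ganglia at 24 h, and 10.7, 6.9 and 12.2 CPM in camptothecin ganglia and 22.4, 15.6 and 8.1 CPM in vehicle ganglia at 36 h. The groups overlapped at every time, since 1 vehicle library per time lay among or below the camptothecin values. Gabra3 averaged -0.71 ± 0.22 (edgeR adjusted p = 0.0461); the call held in 5 of 19 fits that left out 1 library, with adjusted p up to 0.124 in the others, ended when libraries were thinned (adjusted p = 0.0918), and ended with the GC correction at -0.53 ± 0.23 (adjusted p = 0.224). The 5 fits that kept it were those without vehicle replicate 4 at 18 h, vehicle replicate 2 at 24 h, vehicle replicate 4 at 36 h, camptothecin replicate 3 at 24 h or camptothecin replicate 3 at 36 h.

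GABA-A genes sit in clusters. On chromosome 5, Gabrg1 and Gabra2 fell while Gabra4 and Gabrb1 had log2 fold changes of 0.61 ± 0.32 and 0.47 ± 0.23 (edgeR adjusted p = 0.249 and 0.218). Gabra4 was sparse, with 2 to 40 counts per library. Gabrb2 had an averaged log2 fold change of -0.36 ± 0.12 (adjusted p = 0.0695) and Gabrg3 -0.05 ± 0.13 (adjusted p = 0.857). Gabra5 was among the more abundant subunits at 15.3 ± 2.11 CPM per kb, and its averaged value was -0.02 ± 0.09 (adjusted p = 0.913). Differences between these genes were not tested. Gabre, the X-linked neighbour of Gabra3, had 3.23, 1.18, 4.2 and 2.81 CPM in camptothecin ganglia against 0.523, 0.837 and 0.316 CPM in vehicle ganglia at 24 h. Its groups did not overlap at that time, at a log2 fold change of 2.27 ± 0.65 (adjusted p = 0.284). Gabre was counted sparsely, with 2 to 53 counts per library.

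The GABA-B receptor is a pair of Gabbr1, which binds GABA, and Gabbr2. Neither passed in any comparison. Gabbr2 had 282, 363 and 281 CPM in camptothecin ganglia and 314, 285 and 293 CPM in vehicle ganglia at 18 h, 259.8, 321, 299 and 305 CPM in camptothecin ganglia and 324, 302 and 283 CPM in vehicle ganglia at 24 h, and 302, 309 and 275 CPM in camptothecin ganglia and 267, 252 and 251 CPM in vehicle ganglia at 36 h. Its averaged log2 fold change was 0.07 ± 0.06 (edgeR adjusted p = 0.515). Gabbr1 averaged 0.18 ± 0.10 (adjusted p = 0.26), and its libraries were higher without overlap at 18 h, at 34, 36.9 and 33.1 CPM in camptothecin ganglia against 29.8, 22.8 and 25.5 CPM in vehicle ganglia.

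Among metabotropic glutamate receptors, Grm7 encodes a presynaptic receptor coupled to inhibitory G proteins. Its gene (chr6:110645582-111567230, plus strand) has the longest span of the 62 annotated receptor genes, 922 kb. Grm7 had 15.6, 15.2 and 17.4 CPM in camptothecin ganglia against 26, 37.8 and 29.4 CPM in vehicle ganglia at 18 h. It had 15.9, 14.7, 12.4 and 15.8 CPM in camptothecin ganglia against 22, 16.9 and 18.8 CPM in vehicle ganglia at 24 h, and 16, 14.1 and 12.3 CPM in camptothecin ganglia against 36.11, 42.1 and 19.1 CPM in vehicle ganglia at 36 h. At each of the 3 times every camptothecin library lay below every vehicle library, and at 24 h the gap was narrow. The log2 fold change was -0.95 ± 0.23 at 18 h (edgeR adjusted p = 0.0394), -0.38 ± 0.21 at 24 h (adjusted p = 0.691), -1.18 ± 0.23 at 36 h (adjusted p = 0.00886) and -0.84 ± 0.13 in the average (adjusted p = 0.000172). The GC correction left the average at -0.84 ± 0.13 (adjusted p = 0.000581). A second Grm7 transcript, annotated as a target of nonsense-mediated decay, had -0.89 ± 0.30 (adjusted p = 0.067).

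The other 4 metabotropic glutamate receptors did not pass. Grm5, Grm8 and Grm3 had averaged log2 fold changes of -0.85 ± 0.44, -0.70 ± 0.52 and -0.45 ± 0.24, with edgeR adjusted p between 0.247 and 0.447. Grm5 and Grm8 were near the limit of detection, with 0 counts in at least 1 library and at most 28 counts in any. Grm4, a presynaptic receptor of the same group as Grm7, had 0.13 ± 0.14 (adjusted p = 0.643) at 3.53 ± 0.708 CPM per kb.

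AMPA receptors carry fast glutamate signals, and their 4 subunits are Gria1 to Gria4. Gria4 (chr9:4478263-4796234, minus strand) had 6.35, 4.51 and 5.93 CPM in camptothecin ganglia against 10.5, 12.4 and 9.95 CPM in vehicle ganglia at 18 h. At 24 h the values were 3.8, 3.46, 3.57 and 4.55 CPM in camptothecin ganglia against 8.37, 6.7 and 5.69 CPM in vehicle ganglia, and at 36 h 2.34, 3.25 and 4.24 CPM in camptothecin ganglia against 5.37, 11.5 and 4.05 CPM in vehicle ganglia. Camptothecin values lay below vehicle values without overlap at 18 and 24 h, and 1 vehicle library fell among them at 36 h. The averaged log2 fold change was -0.96 ± 0.19 (edgeR adjusted p = 0.0016), and -0.79 ± 0.18 with the GC correction (adjusted p = 0.0121). Gria4 counts were low, from 22 to 56 per library, and the next most abundant coding transcript had 0.93 ± 0.35 (adjusted p = 0.102). Summed over transcripts, Gria4 had -0.61 (adjusted p = 0.0103). Gria1, Gria2 and Gria3 did not pass, at averaged log2 fold changes between -0.27 and -0.11.

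The kainate family was the only one with calls in both directions in the averaged comparison. Grik1, a subunit known for its abundance in small sensory neurons, lies at chr16:87912421-88056176, minus strand, and was counted sparsely, with 1 to 38 counts per library. It had 3.78, 0.501 and 4 CPM in camptothecin ganglia against 5.25, 5.29 and 8.59 CPM in vehicle ganglia at 18 h. At 24 h the values were 0.576, 1.37, 0.714 and 3 CPM in camptothecin ganglia and 1.05, 2.75 and 2.69 CPM in vehicle ganglia, and at 36 h 0.0937, 0.493 and 0.31 CPM in camptothecin ganglia against 1.71, 3.53 and 5.51 CPM in vehicle ganglia. Groups were separate at 18 and 36 h. Grik1 had the largest averaged fall of the 63, -1.80 ± 0.40 (edgeR adjusted p = 0.00493), and -1.76 ± 0.39 with the GC correction (adjusted p = 0.0097).

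Grik5, a subunit that works only in assemblies with other kainate subunits (chr7:25009849-25072292, minus strand), had 25.7, 29.1 and 29.5 CPM in camptothecin ganglia against 12.3, 24.6 and 21.9 CPM in vehicle ganglia at 18 h. It had 27.3, 23.9, 27.8 and 29.9 CPM in camptothecin ganglia against 23, 17.1 and 20.4 CPM in vehicle ganglia at 24 h, and 28.2, 20.9 and 19.5 CPM in camptothecin ganglia and 22.7, 15.3 and 18 CPM in vehicle ganglia at 36 h. Camptothecin values lay above vehicle values at 18 and 24 h and overlapped them at 36 h. The averaged log2 fold change was 0.41 ± 0.12 (edgeR adjusted p = 0.0306). The call held in 13 of 19 fits with 1 library left out. It ended without vehicle replicate 2 or 3 at 24 h (adjusted p = 0.0632 and 0.0515), vehicle replicate 3 at 36 h (0.0701), camptothecin replicate 3 or 4 at 18 h (0.0565 and 0.051) or camptothecin replicate 1 at 36 h (0.0791). With the GC correction it was 0.23 ± 0.12 (adjusted p = 0.337), at a transcript GC content of 62.3%. Grik3 averaged 0.21 ± 0.07 (adjusted p = 0.0764), Grik4 0.14 ± 0.12 (adjusted p = 0.54) and Grik2 -0.28 ± 0.20 (adjusted p = 0.431).

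NMDA receptors are calcium-permeable glutamate channels, and Grin3a encodes a subunit that lowers their calcium flow. Grin3a, counted by a processed transcript (chr4:49704204-49719250, minus strand), had 3.02, 1.3 and 3.87 CPM in camptothecin ganglia against 7.3, 7.94 and 4.97 CPM in vehicle ganglia at 18 h. At 24 h it had 1.73, 1.96, 2.3 and 2.81 CPM in camptothecin ganglia and 4.01, 4.54 and 1.58 CPM in vehicle ganglia, and at 36 h 2.72, 1.77 and 3.31 CPM in camptothecin ganglia and 3.17, 3.53 and 5.83 CPM in vehicle ganglia. The groups were separate at 18 h and overlapped later. Its averaged log2 fold change was -0.88 ± 0.25 (edgeR adjusted p = 0.0234). Thinning to equal depth gave -0.49 (adjusted p = 0.224), and the GC correction gave -0.32 ± 0.24 (adjusted p = 0.544), at a transcript GC content of 35.4%. The call also ended without vehicle replicate 3 at 18 h (adjusted p = 0.0536), vehicle replicate 1 or 2 at 24 h (0.0541 and 0.0607) or vehicle replicate 4 at 36 h (0.0601). Grin1, Grin2b, Grin2d and Grin3b did not pass, with averaged log2 fold changes between -0.30 and 0.44. Grin1os, the antisense gene, had 0.07 ± 0.11 (adjusted p = 0.757).

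**Figure D3:**
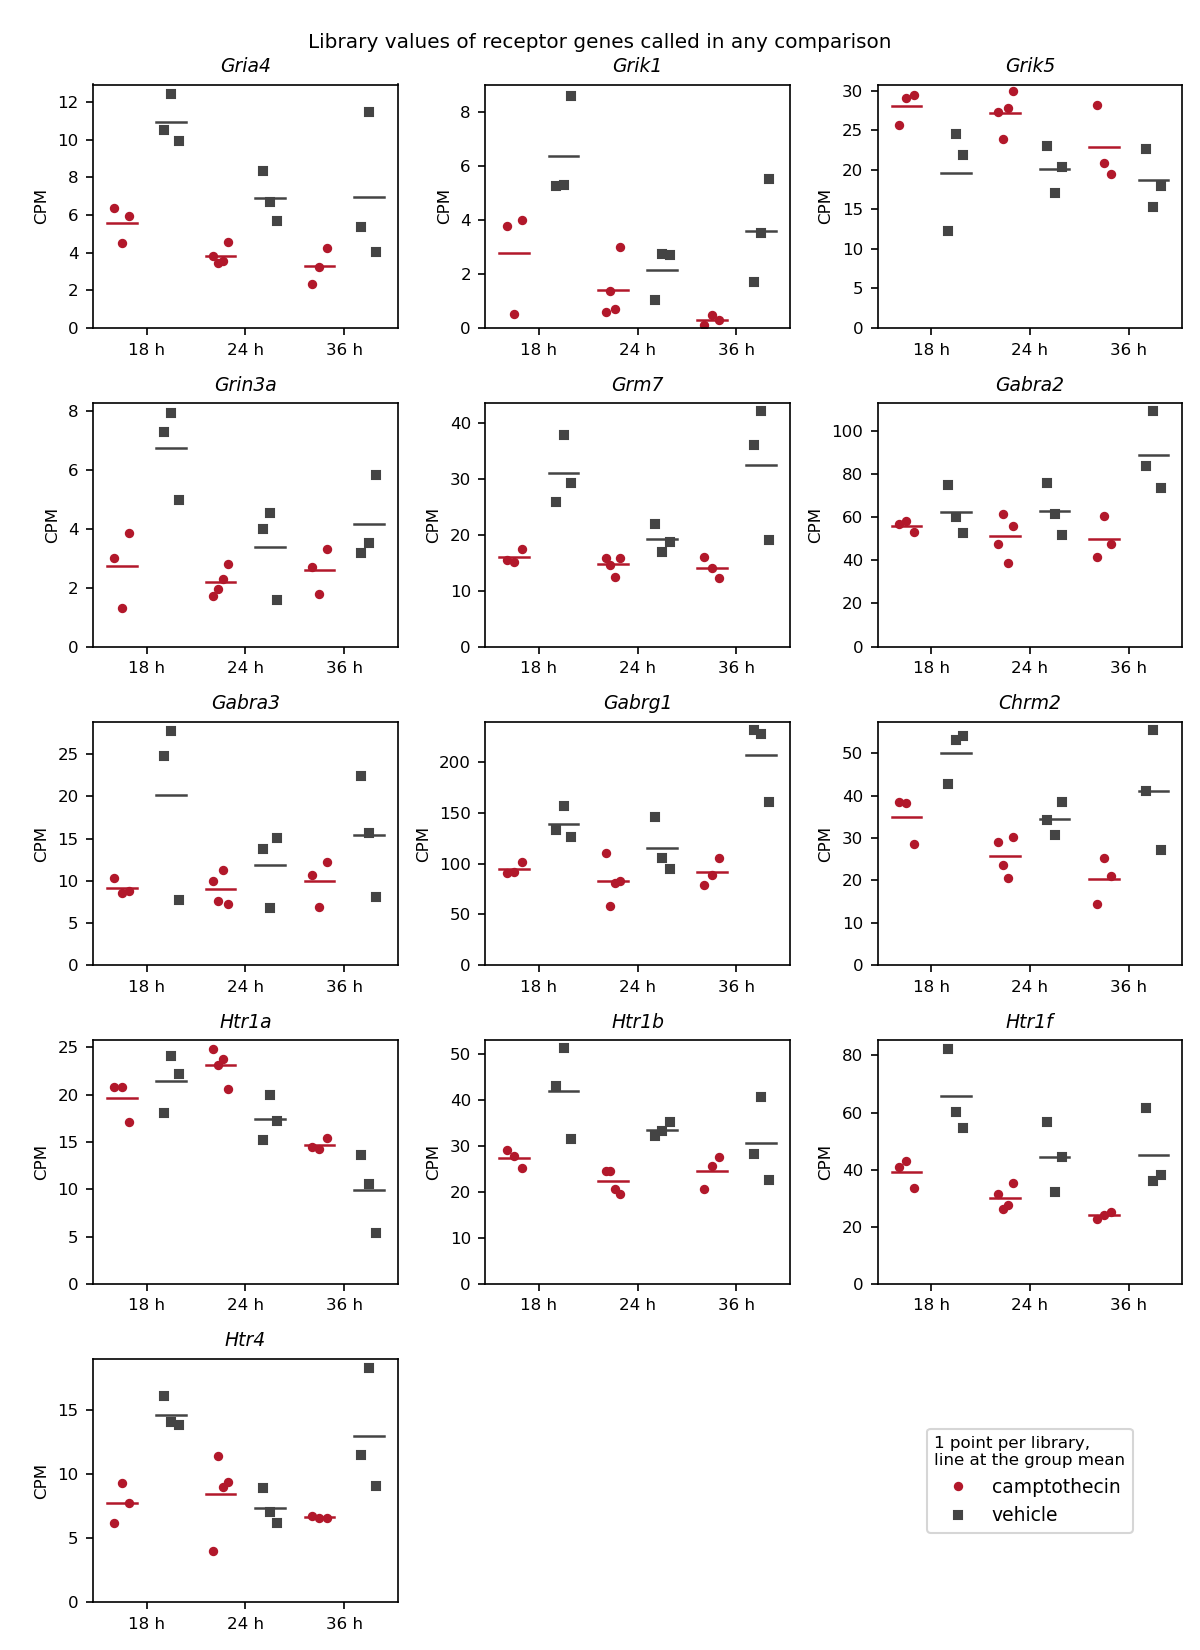
CPM of 13 of the 14 receptor genes called in any comparison, 1 point per library, camptothecin as red circles left of vehicle as grey squares at 18, 24 and 36 h, with a line at each group mean. At 36 h Gabrg1 spans 79.1 to 106 CPM in camptothecin and 161 to 231 CPM in vehicle ganglia.

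Serotonin receptors coupled to G proteins gave 3 lower genes of 9 in the average, against 7.69% of all transcripts, and none with the GC correction, against 3.12%. Htr1f, which couples to inhibitory G proteins and is a target of migraine drugs (chr16:64924729-65105854, minus strand), had 40.8, 42.9 and 33.4 CPM in camptothecin ganglia against 82.3, 60.3 and 54.7 CPM in vehicle ganglia at 18 h. At 24 h it had 31.5, 26.3, 27.6 and 35.2 CPM in camptothecin ganglia and 56.7, 32.2 and 44.3 CPM in vehicle ganglia, and at 36 h 22.7, 24.23 and 25.3 CPM in camptothecin ganglia against 61.5, 35.9 and 38.1 CPM in vehicle ganglia. Groups were separate at 18 and 36 h, and at 24 h 1 vehicle library lay within the camptothecin range. The averaged log2 fold change of Htr1f was -0.74 ± 0.12 (edgeR adjusted p = 0.000328), and -0.38 ± 0.12 with the GC correction (adjusted p = 0.0875), at a transcript GC content of 39.4%.

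Htr1b, an inhibitory receptor on sensory terminals (chr9:81628291-81633828, minus strand), had 29, 27.8 and 25.1 CPM in camptothecin ganglia against 42.9, 51.3 and 31.4 CPM in vehicle ganglia at 18 h. It had 24.44, 24.6, 20.5 and 19.6 CPM in camptothecin ganglia against 32.1, 33.1 and 35.1 CPM in vehicle ganglia at 24 h, and 20.5, 25.5 and 27.6 CPM in camptothecin ganglia and 28.3, 40.6 and 22.5 CPM in vehicle ganglia at 36 h. Camptothecin values were below all vehicle values at 18 and 24 h. The averaged log2 fold change was -0.50 ± 0.11 (edgeR adjusted p = 0.00516), and -0.40 ± 0.12 with the GC correction (adjusted p = 0.0559). Htr4, which couples to stimulatory G proteins and lies on chromosome 18, had 6.2, 9.31 and 7.74 CPM in camptothecin ganglia against 16.1, 14 and 13.8 CPM in vehicle ganglia at 18 h. At 24 h it had 4.04, 11.4, 8.96 and 9.39 CPM in camptothecin ganglia and 8.89, 7.06 and 6.17 CPM in vehicle ganglia, and at 36 h 6.74, 6.6 and 6.61 CPM in camptothecin ganglia against 11.5, 18.26 and 9.08 CPM in vehicle ganglia. It was lower without overlap at 18 and 36 h, and at 24 h the camptothecin mean was the higher one. Averaged, Htr4 had -0.54 ± 0.17 (edgeR adjusted p = 0.0496); the call held in 3 of 19 fits with 1 library left out, with adjusted p up to 0.134 in the others. The 3 were those without vehicle replicate 4 at 36 h, camptothecin replicate 3 at 18 h or camptothecin replicate 2 at 24 h. The Htr4 call also ended with RLE size factors (edgeR adjusted p = 0.0531), with no filter on low counts (0.0526), with thinning (0.104) and with the GC correction, at -0.43 ± 0.18 (adjusted p = 0.197).

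The other 6 serotonin receptors coupled to G proteins did not pass for camptothecin. Htr1d, like Htr1b a target of the triptans, averaged 0.02 ± 0.12 (edgeR adjusted p = 0.945), Htr2a -0.01 ± 0.10 (adjusted p = 0.962) and Htr1a 0.29 ± 0.13 (adjusted p = 0.164). Htr2b, Htr5a and Htr5b had -0.33 ± 0.33, 0.06 ± 0.18 and 0.13 ± 0.30. The serotonin channel subunits did not pass either. Htr3a had 118, 120.1 and 101 CPM in camptothecin ganglia against 104, 103 and 88.6 CPM in vehicle ganglia at 18 h, with an averaged log2 fold change of 0.19 ± 0.08 (adjusted p = 0.151), and Htr3b averaged 0.07 ± 0.11 (adjusted p = 0.779).

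Of the muscarinic receptors, Chrm2 encodes the M2 receptor, which couples to inhibitory G proteins (chr6:36388084-36528414, plus strand). It had 38.4, 38.3 and 28.5 CPM in camptothecin ganglia against 42.6, 53.2 and 54 CPM in vehicle ganglia at 18 h. At 24 h it had 28.9, 23.6, 20.5 and 30.2 CPM in camptothecin ganglia against 34.3, 30.6 and 38.6 CPM in vehicle ganglia, and at 36 h 14.4, 25.2 and 21.1 CPM in camptothecin ganglia against 41, 55.4 and 27.1 CPM in vehicle ganglia. Every camptothecin library lay below every vehicle library at each time. The log2 fold change was -1.01 ± 0.23 at 36 h (edgeR adjusted p = 0.0219) and -0.65 ± 0.13 in the average (adjusted p = 0.00208), and -0.40 ± 0.12 with the GC correction (adjusted p = 0.064). Chrm3 was sparse, with 0 counts in at least 1 library, and averaged -0.32 ± 0.47 (adjusted p = 0.742).

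None of the 9 nicotinic subunits passed for camptothecin by edgeR. In the average 1 had an unadjusted edgeR p under 0.05, against 4393 of all 18606 transcripts. Their averaged log2 fold changes lay between -0.15 for Chrnb1 and 0.28 for Chrna4. Chrna7 had 38.6, 44 and 37.9 CPM in camptothecin ganglia and 32.7, 45.8 and 45.7 CPM in vehicle ganglia at 18 h and averaged 0.07 ± 0.11 (adjusted p = 0.76). Chrnb2, with the smallest p of the family, averaged 0.19 ± 0.07 (adjusted p = 0.108). The neighbours Chrna5, Chrna3 and Chrnb4 on chromosome 9 averaged -0.07 ± 0.27, -0.05 ± 0.20 and 0.03 ± 0.21. Chrna1 and Chrna6 had -0.07 ± 0.28 and -0.01 ± 0.17. A p that misses the threshold does not show that the levels were the same.

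The opioid receptors did not pass. Oprm1 had 16.6, 15.3 and 12.5 CPM in camptothecin ganglia and 18.7, 13.8 and 17.2 CPM in vehicle ganglia at 18 h, and its averaged log2 fold change was 0.06 ± 0.11 (edgeR adjusted p = 0.816). Oprd1, the delta receptor, averaged 0.07 ± 0.14 (adjusted p = 0.831) and Oprk1, the kappa receptor, -0.20 ± 0.24 (adjusted p = 0.657). Of 4 alpha adrenoceptors none passed by edgeR. Adra2c had 10.9, 7.91 and 5.41 CPM in camptothecin ganglia against 2.63, 5.03 and 1.36 CPM in vehicle ganglia at 18 h, with separate groups and the largest positive log2 fold change of the 63 at that time, 1.43 ± 0.38 (adjusted p = 0.0591). With the GC correction the 18 h value of Adra2c was 1.25 ± 0.35 (edgeR adjusted p = 0.145). At 36 h Adra2c had 4.96, 3.55 and 5.89 CPM in camptothecin ganglia and 6.34, 6.19 and 4.7 CPM in vehicle ganglia. Its log2 fold change there was -0.25 ± 0.35 (adjusted p = 0.792). Adra2a, the other receptor of that class that inhibits release, had 0.90 ± 0.26 at 36 h (adjusted p = 0.0694) and Adra1a had -1.89 ± 0.73 (adjusted p = 0.193). Adra1a was sparse, with 1 to 26 counts per library. Adra1d averaged 0.10 ± 0.55 (adjusted p = 0.941).

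Time by time, 1 receptor gene passed at 18 h (Grm7, lower), against 1.26% lower and 0.317% higher in the background (1.58% in either direction). None passed at 24 h by edgeR, DESeq2 or limma on the deposited values, and 0 of all 18606 transcripts passed by edgeR. There 8 of the 63 and 1485 of the 18606 had an unadjusted edgeR p under 0.05. At 36 h 6 were lower and none higher, 9.524% of the 63 against 2.32% lower and 0.188% higher in the background (2.5% in either direction): Gabrg1, Grm7, Grik1, Chrm2, Gabra2 and Htr1f. Their log2 fold changes at 36 h were -1.18 ± 0.19, -1.18 ± 0.23, -3.55 ± 0.80, -1.01 ± 0.23, -0.82 ± 0.19 and -0.91 ± 0.22 (edgeR adjusted p = 0.00526, 0.00886, 0.0191, 0.0219, 0.0227 and 0.0261). The authors' deposited table called Adra2c and Grm7 at 18 h, none at 24 h and the same 6 genes at 36 h.

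The counts at single times rested on few libraries. At 36 h the count was 0 without vehicle replicate 3 or without camptothecin replicate 1, 2 without vehicle replicate 2 or camptothecin replicate 3, 5 without camptothecin replicate 2 and 9 without vehicle replicate 4. With the GC correction 1 gene was lower at 36 h, Grm7 at -1.18 ± 0.23 (edgeR adjusted p = 0.0266), against a background of 0.328% lower and 0.0269% higher, and none was called at 18 h, against 0.086% lower and 0.043% higher, while Grm7 itself had -0.94 ± 0.23 at 18 h with the correction (adjusted p = 0.0946). Without the correction Grm7 lost its 36 h call without vehicle replicate 2 or 3 or camptothecin replicate 1 (adjusted p = 0.0579, 0.0882 and 0.0534). At 18 h the count was 0 with any of vehicle replicate 1 and camptothecin replicates 2, 3 and 4 left out. It was 1 higher gene without vehicle replicate 3 and 1 lower gene other than Grm7 without vehicle replicate 4. Grm7 lost its call with each of the 6 libraries left out (adjusted p from 0.0549 to 0.175). All called values kept their direction in these fits.

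The groups can also be compared by overlap alone. At 18 h, 16 of 63 genes (25.4%) had all camptothecin libraries below all vehicle libraries, against 11% of all transcripts, and 4 had them above, against 8.07%. At 24 h the counts were 4 below, against 5.2% of all transcripts, and 7 above, against 3.83%. At 36 h they were 10 below, against 8.7%, and 9 above, against 9.6%. The difference of the camptothecin effect between 36 and 18 h passed for none of the 63 by edgeR or DESeq2. Among all transcripts 0.0107% passed by edgeR, all higher. At an unadjusted edgeR p under 0.05 there were 8 of the 63 and 921 of all 18606 transcripts. No receptor gene was shown to respond differently at those times.

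Within vehicle ganglia, 1 receptor gene differed between 36 and 18 h, against 1.44% of all transcripts (1.01% higher and 0.43% lower). Htr1a, an inhibitory serotonin receptor, had 18.0997, 24.08 and 22.2 CPM at 18 h, 15.2, 19.97 and 17.2 CPM at 24 h and 13.7, 10.6 and 5.35 CPM at 36 h. All 36 h vehicle libraries lay below all 18 h vehicle libraries, at a log2 fold change of -1.15 ± 0.24 (edgeR adjusted p = 0.0136). The call ended without vehicle replicate 3 or 4 at 18 h or vehicle replicate 4 at 36 h (adjusted p up to 0.0757). In camptothecin ganglia Htr1a had 20.9, 20.8 and 17.1 CPM at 18 h, 24.8, 23.2, 23.8 and 20.6 CPM at 24 h and 14.5, 14.3 and 15.4 CPM at 36 h. Between 24 and 18 h none passed in vehicle by edgeR (11 at an unadjusted p under 0.05), against 0.231% of all transcripts, 0.161% higher and 0.0699% lower. None passed in camptothecin ganglia either (3 at an unadjusted p under 0.05), where 0 of all transcripts passed. Between 36 and 18 h in camptothecin ganglia none passed by edgeR (13 at an unadjusted p under 0.05; 2 by DESeq2), against 0.511% of all transcripts, 0.36% higher and 0.15% lower.

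Overlap between times within an arm was as follows. In vehicle ganglia, 11 of the 63 genes had all 24 h libraries below all 18 h libraries, against 9.29% of all transcripts, and 2 had them above, against 8.36%. At 36 h 13 lay below the 18 h libraries, against 6.67%, and 3 above, against 7.86%. In camptothecin ganglia, 3 lay below at 24 h, against 3.21%, and 2 above, against 3.11%. At 36 h 11 lay below, against 8.75%, and 4 above, against 9.62%.

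Transcript GC content and gene span, which the name pattern did not use, differed between called and uncalled genes in their medians. Transcripts of the 12 lower genes had a median GC content of 42.3% and a median gene span of 177 kb, against 49.6% and 33.8 kb for the 49 annotated genes that did not pass. Of 22 receptor genes with a GC content of at most 45%, 9 were lower; of 40 above 45%, 3 were lower and 1 was higher. Of 28 genes with a span over 100 kb, 9 were lower, and of 34 shorter ones 3 were lower and 1 was higher. Among all transcripts of any GC content and span, 7.69% were lower and 2.59% higher. Shares of all transcripts within these bins were not computed, so the counts do not show a trait particular to receptor genes. The rank correlation of the averaged log2 fold change with GC content was 0.577 across 62 receptor genes and 0.465 across 18213 transcripts. With gene span it was -0.459 across the receptor genes and -0.182 across all transcripts. These correlations are across genes, which share the same libraries, and are given as descriptions.

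**Figure D4:**
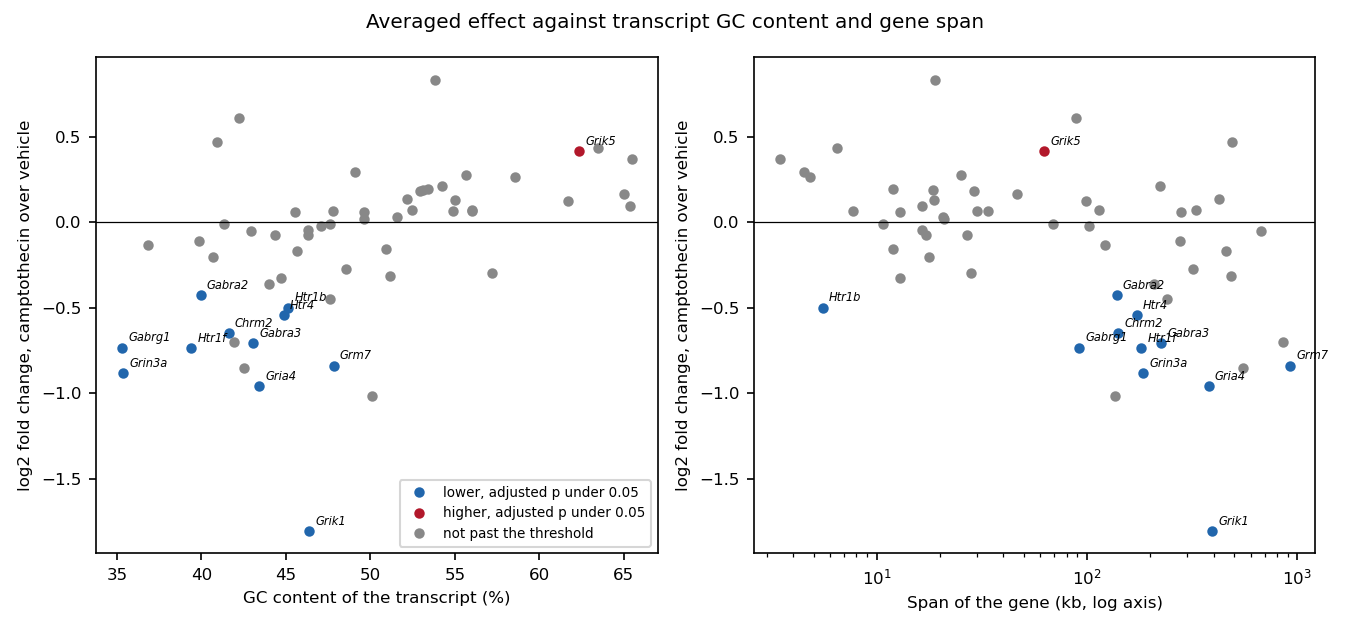
Averaged log2 fold change of camptothecin over vehicle against transcript GC content (left, %) and gene span (right, kb, log axis) for 59 annotated receptor genes, 1 point per gene. The lower genes (blue, named) lie mostly at a GC content of at most 45% and at spans over 100 kb, and Grik5 (red) has a GC content of 62.3%.

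The GC correction moved the members unequally. Among the called genes it moved Gabrg1, Grin3a and Htr1f most, to values of -0.14 ± 0.12, -0.32 ± 0.24 and -0.38 ± 0.12, and left Grm7, with a transcript GC content of 47.8% near the middle of all transcripts, where it was. All 13 called genes kept their sign.

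**Figure D5:**
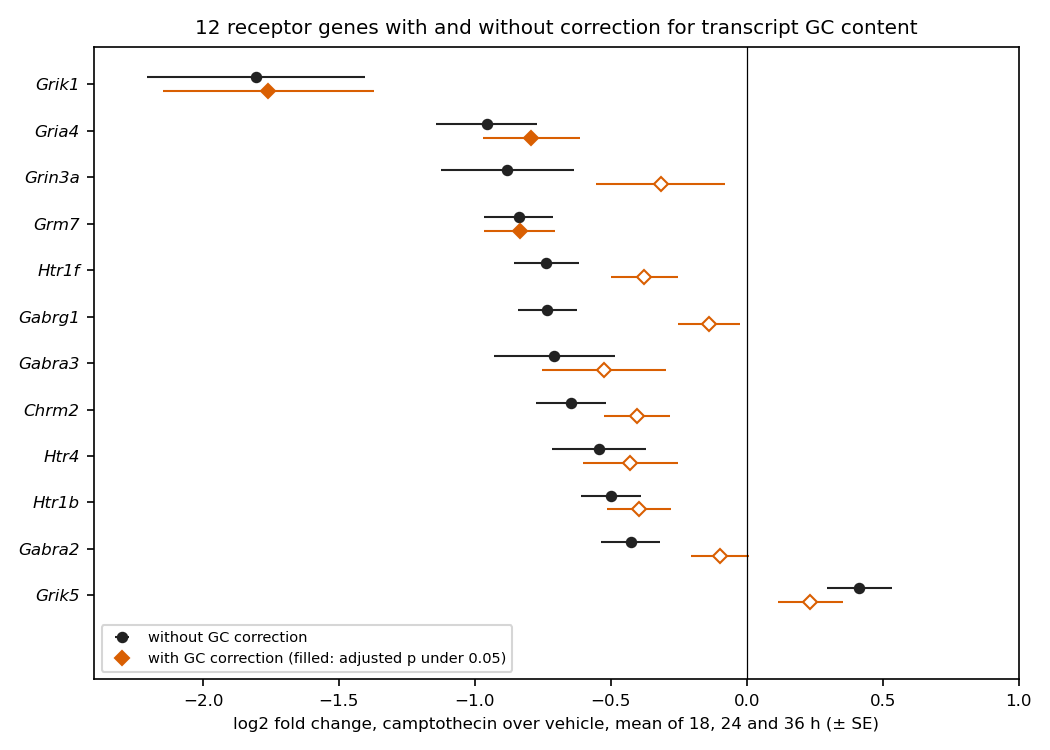
Averaged log2 fold change (± SE) of 12 of the 13 called receptor genes without (black circles) and with (orange diamonds) correction for transcript GC content. Filled diamonds, Grik1, Gria4 and Grm7, kept an edgeR adjusted p under 0.05; Gabrg1 moved from -0.73 to -0.14.

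Partners of the receptors were read against the same background in the average, 7.69% lower and 2.59% higher among all transcripts. Of 21 measured partners of ionotropic glutamate receptors, 2 were lower in the average: Homer1, a postsynaptic scaffold, at -0.62 ± 0.13 (edgeR adjusted p = 0.00281), and Neto2, an auxiliary subunit of kainate receptors, at -0.45 ± 0.11 (adjusted p = 0.012). In the average, the GC correction gave Homer1 -0.12 ± 0.14 and turned Neto2 to 0.08 ± 0.12. Without the correction Homer1 also passed at 36 h, at -0.96 ± 0.23 (adjusted p = 0.0295). Of 13 partners of GABA and nicotinic receptors, 2 were lower, both auxiliary subunits of the GABA-B receptor: Kctd8 at -0.77 ± 0.10 (adjusted p = 5.29e-05) and Kctd12 at -0.80 ± 0.18 (adjusted p = 0.00439). Kctd8 also passed at 18 h at -0.85 ± 0.18 and at 36 h at -0.84 ± 0.18. With the GC correction Kctd8 had -0.80 ± 0.11 (adjusted p = 0.000226) and Kctd12 -0.70 ± 0.18 (adjusted p = 0.0236).

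Of 27 genes of G protein signalling, 1 passed in the average. Plcb1, a phospholipase activated by Gq-coupled receptors, had -1.02 ± 0.13 (edgeR adjusted p = 5.12e-05), and -0.87 ± 0.14 with the GC correction (adjusted p = 0.000577). Without the correction Plcb1 also passed at 18 h at -1.04 ± 0.24 (adjusted p = 0.0352) and at 36 h at -1.21 ± 0.24 (adjusted p = 0.00906). Of 22 genes of transmitter release and uptake, 3 were lower: Slc17a6, the main vesicular glutamate transporter of sensory neurons, at -0.35 ± 0.09 (adjusted p = 0.0191), Slc18a2, the vesicular monoamine transporter, at -0.40 ± 0.10 (adjusted p = 0.0108), and Slc17a8, another vesicular glutamate transporter, at -0.56 ± 0.18 (adjusted p = 0.0464). None of these 3 passed with the GC correction, at -0.16 ± 0.10, -0.22 ± 0.11 and -0.41 ± 0.18. Of 10 measured genes listed as receptors outside the name pattern, 1 passed, Grina, which encodes an NMDA receptor-associated protein and no receptor, at 0.21 ± 0.06 (adjusted p = 0.0371), and 0.04 ± 0.07 with the GC correction. The averaged medians of the 5 lists lay between -0.14 and 0.08 on the log2 scale.

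Between 36 and 18 h, Neto1, an auxiliary subunit related to Neto2, was higher in vehicle ganglia at 1.65 ± 0.15 (edgeR adjusted p = 1.27e-06) and in camptothecin ganglia at 1.06 ± 0.14 (adjusted p = 0.000527). Glul, the glutamine synthetase of glia, was higher at 0.85 ± 0.11 in vehicle and 0.64 ± 0.11 in camptothecin ganglia. Lower at 36 than at 18 h were Lhfpl4, a GABA-A receptor partner, in vehicle ganglia at -0.68 ± 0.12 (adjusted p = 0.00424), Adrbk2, a receptor kinase, in vehicle ganglia at -0.96 ± 0.21 (adjusted p = 0.0176), and Homer1 in camptothecin ganglia at -1.11 ± 0.23 (adjusted p = 0.0232). Lhfpl4 was also lower at 24 than at 18 h in vehicle ganglia, at -0.59 ± 0.12 (adjusted p = 0.0491). Whether the 2 arms differed over time was tested for the drug effect at 36 against 18 h, and none of the partners passed.

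Some markers of the ganglion's cell types passed in the average, where 7.69% of all transcripts were lower and 2.59% higher. The 19 sensory neuron markers had a median averaged log2 fold change of 0.03, with 2 higher (Tubb3 and Uchl1) and 2 lower (Isl1 and Snap25). Their summed level at 36 h was 24924 to 28367 CPM in camptothecin ganglia and 28231 to 34826 CPM in vehicle ganglia, and at 18 h 34519 to 39763 CPM with camptothecin and 35027 to 37171 CPM with vehicle. Satellite glia markers had a median of 0.02 over 8 genes, with 1 higher and 2 lower. Markers of red cells were lower in 6 of 7 genes, with summed levels at 36 h of 4.73 to 14.5 CPM in camptothecin and 41.5 to 110.5 CPM in vehicle ganglia. Of the other lists, Schwann cell and myelin markers had 1 higher and macrophage markers 1 lower in the average, and no fibroblast, endothelial, mural, muscle, spinal cord or sympathetic marker measured passed there. At 36 h the fibroblast marker Dcn was higher at 0.88 ± 0.18 (edgeR adjusted p = 0.0102), and all 5 measured fibroblast markers were above 0. At 18 h and at 24 h all 5 were below 0 and none passed. The Schwann cell marker Pmp22 was also higher at 36 h, at 0.76 ± 0.17 (adjusted p = 0.0189), and all 7 measured markers of its list were above 0. The sensory neuron marker Isl1 was lower at 18 h at -0.93 ± 0.21 (edgeR adjusted p = 0.0326) and at 36 h at -0.98 ± 0.21 (adjusted p = 0.0135). Tubb3 and Nefh were higher at 18 h, at 0.45 ± 0.11 and 0.47 ± 0.11 (adjusted p = 0.0491 and 0.0382). Of 7 red cell markers, 1 was lower at 18 h and 4 at 36 h. Among all transcripts 0.188% were higher and 2.32% lower at 36 h, and 0.317% higher and 1.26% lower at 18 h. The part of these shifts in the receptor results was not tested.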

How the data were processed

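RNA from dorsal root ganglia was sequenced in paired ends from Nugen Ovation V2 libraries, per the labels' protocols, which name total RNA and also IP or FT RNA. The authors' deposited table holds raw counts per Ensembl transcript for 19 libraries, with no normalization. It also holds variance-stabilised values on a log2 scale, log2 fold changes and p-values for each time, as deposited by the authors. CASAVA 1.8.2, limma and mm10 are named in the submitters' processing notes; the sources used here name no aligner, counter or annotation. Columns carry the letters A and B, which were assigned to vehicle and camptothecin because the authors' named log2 fold changes equal B minus A.

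The quasi-likelihood test of edgeR 4.0.16 (R 4.3.3) was applied to these counts, with 6 group means and TMM scaling. The filter (filterByExpr, minimum count 10, minimum total 15) kept 18606 transcripts and removed 965, and p-values were adjusted by Benjamini-Hochberg over all kept. The SE is the log2 fold change divided by the square root of F. CPM are counts scaled to a common library total with TMM factors, and levels per kb use transcript lengths of GENCODE M21 on GRCm38. Alternatives were RLE size factors, DESeq2 1.42.0, limma 3.58.1 on the deposited log2 values, no filter, summed transcripts, a replicate block, thinning to the smallest total, each library left out, and a GC correction, which subtracted a lowess curve (span 0.3) of each library's deviation against transcript GC. The edgeR steps were tested on simulated data.

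The members and gene lists were chosen with earlier results of these data known. Some receptor genes are counted in the totals but not reported here by name or drawn. Values in every library are given for the named genes called in any comparison; the other genes of the naming rule (the highest in each family and those with the smallest p) are given by selected times, fold changes or figures. Replicates differed beyond sampling noise, with a chi-square per degree of freedom of at least 3.31.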

Additional observations from a re-analysis of the deposited data

Results flagged for a closer look

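In groups of 4 libraries, which are the camptothecin ganglia at 24 h alone, 63 receptor genes were examined for a library far from the other 3, and 4 genes had one. Chance flags about 1 in 20 such groups. Gria3 had 0.9515 CPM in replicate 3, against 1.743 to 1.845 CPM in the others. Adra2c had 7.532 CPM in replicate 3, against 4.963 to 5.188 CPM. Chrm3 had 1.959 CPM in replicate 2, against 1.038 to 1.162 CPM. Htr3b had 18.56 CPM in replicate 1, against 21.79 to 22.14 CPM. None of these genes passed in a comparison of camptothecin with vehicle by edgeR.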

How the results depend on the processing

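The 21 called values of single receptor genes kept their direction in all 463 alternative fits, and 16 of the 21 lost their call with the GC correction. The number of receptor genes called at 18 h was 1 in the main analysis, 2 with RLE size factors, 6 with DESeq2, 2 with limma on the deposited values, 3 with thinning, 4 with transcripts summed and 0 with the GC correction. At 36 h it was 6, and 10 with DESeq2 and 1 with the GC correction. In the average it was 13, and 3 with the GC correction, while the other settings gave 10 to 16. In camptothecin ganglia between 36 and 18 h it was 0, and 2 with DESeq2. The causes of these differences were not tested. Shares of all transcripts called were taken for the main analysis and the GC correction alone. In either direction they were 1.58% and 0.129% at 18 h, 2.5% and 0.355% at 36 h, and 10.3% and 4.49% in the average. For the other settings and for fits without 1 library, whether the calls among all transcripts moved likewise is not known. Leaving out 1 library gave 10 to 13 in the average, 0 to 1 at 18 h, 0 to 9 at 36 h, 0 to 1 between 36 and 18 h in vehicle and 0 to 1 in camptothecin ganglia. Replicate numbers were shared between the groups, but the deviations of the 7 same-numbered pairs correlated at -0.21 to 0.226, with 1 pair over 0.1, so they were not taken as pairs. With the replicate block the count was 3 at 18 h, 7 at 36 h, 13 in the average and 2 between 36 and 18 h in vehicle ganglia. Genes with few counts, such as Grik1, are limited by depth.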
